A study of Mus musculus with 55 samples.

Results

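The genes of the aminoacyl-tRNA synthetases were followed as mouse embryonic stem (ES) cells left mitosis and re-entered interphase. They were chosen by symbol, with no measured value in the rule: 36 genes, 20 for cytosolic enzymes (no suffix) and 16 for mitochondrial enzymes (suffix 2). Of these, 35 were listed in both tables of pre-mRNA levels, all 20 cytosolic and 15 of the 16 mitochondrial, and Mars2 was not listed. The table of the first cell line held 9911 genes and that of the second 10237. Both lines derive from E14Tg2a, an ES line of strain 129/Ola, and were grown in serum and LIF. CCNA-GFP cells carry a fluorescent cyclin A reporter of the cell cycle. CTCF-AID cells are 1 clone in which the DNA-binding protein CTCF carries an auxin-inducible degron, so that the auxin IAA removes the protein, and cells with and without IAA both carry these alleles. Mitotic cells were obtained with 10 µM of the CDK1 inhibitor RO-3306 for 4 h and 50 ng/ml of the spindle poison nocodazole for a further 4 h, shaken off and released. CCNA-GFP gave 19 libraries, of which 3 were asynchronous, 3 mitotic and the rest from release: 2 per stage (20, 30, 40, 60, 90 and 120 min) and a single one from 50 min. CTCF-AID gave 18 libraries without IAA (-IAA) and 18 with 0.5 mM IAA (+IAA), present for the last 2 h of nocodazole and throughout release. Asynchronous CTCF-AID cells of the +IAA arm had IAA in parallel for 4 h, so the time in IAA differed between stages. Asynchronous cells of both lines are listed without RO-3306 or nocodazole. Each arm had 3 asynchronous and 3 mitotic libraries, and 2 per release stage (20, 40, 50, 60, 90 and 120 min).

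Aminoacyl-tRNA synthetases join each amino acid to its tRNA and so supply the ribosome with its substrates. Most amino acids have one enzyme in the cytosol and another, encoded by a separate nuclear gene, for the protein synthesis of mitochondria. Several cytosolic enzymes, with 3 scaffold proteins, form the multi-tRNA synthetase complex, and many cytosolic synthetase genes are known targets of ATF4, the activator of the amino acid response. Pre-mRNA, which still holds introns, follows transcription more closely than mature mRNA. A synthetase pre-mRNA is given below in TPM, transcript abundance per length scaled within a library, and differences are on the log2(TPM + 1) scale, which understates the change of low genes. Within a cell population, fewer cells transcribing a gene and less pre-mRNA per cell cannot be told apart.

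The promoters of members that share a binding element are shown first, because the element was found in windows of the cytosolic class. RefSeq windows of build GRCm38.p6, from 250 bases before to 50 bases after the start site, were found for 26 of the 36 symbols, 12 cytosolic and 14 mitochondrial. The core of the ATF4 element, TGATGNAA on either strand, was present in 5 of the 12 cytosolic windows (Aars, Gars, Iars, Tars and Yars) and in 0 of the 14 mitochondrial ones, against 3.97% of 32851 promoters of the same length. The lines below are printed 5′ to 3′ on the strand of the gene, with the element in capitals and, in Aars, also the E-box CACGTG. The first 3 hold the 150 bases before the start site and the last 2 hold 30 bases around it. They lie at chr8:111033692-111033841 (plus strand) for the alanyl enzyme Aars, chr6:55037851-55038000 (plus) for the glycyl enzyme Gars, chr15:11399659-11399808 (minus) for the threonyl enzyme Tars, chr13:49682122-49682151 (plus) for the isoleucyl enzyme Iars and chr4:129189893-129189922 (plus) for the tyrosyl enzyme Yars.
Aars: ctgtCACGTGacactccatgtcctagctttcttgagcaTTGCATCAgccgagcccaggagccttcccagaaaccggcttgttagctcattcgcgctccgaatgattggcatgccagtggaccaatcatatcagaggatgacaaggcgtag
Gars: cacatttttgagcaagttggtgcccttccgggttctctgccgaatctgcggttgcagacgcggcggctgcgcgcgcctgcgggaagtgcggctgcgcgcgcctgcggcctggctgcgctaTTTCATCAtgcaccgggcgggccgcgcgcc
Tars: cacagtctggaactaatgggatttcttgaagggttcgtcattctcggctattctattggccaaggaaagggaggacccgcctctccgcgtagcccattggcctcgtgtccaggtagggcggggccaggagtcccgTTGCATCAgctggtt
Iars: ctggcactgtcagtaTTGCATCAcctccag
Yars: cgacgagctcagcTGATGCAAcccgacggg

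The element stood at different distances from the start site. Counted from the start site, with bases before it negative, it began at -112 in Aars, -30 in Gars, -15 in Tars, 7 in Iars and 3 in Yars, and a second match in Aars began at 9. In all, 7 motifs were searched on both strands of these windows, and a match describes letters only. CACGTG was found in 4 cytosolic windows and 1 mitochondrial one (7.15% of all promoters). The NRF1 motif was found in 6 and 3 (12.0%), the ETS motif CCGGAAG in 4 and 4 (8.86%), the YY1 motif AANATGGC in 1 and 4 (6.05%), and CCAAT in 6 and 6 (37.4%).

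The core of the CTCF motif was searched because the +IAA libraries come from cells treated to remove this protein. It was present in 1 cytosolic window, of the seryl enzyme gene Sars, and in 3 mitochondrial ones, Cars2, Lars2 and Yars2, against 8.61% of all promoters. The 150 bases before the start are printed for Cars2, the mitochondrial cysteinyl enzyme (chr8:11550772-11550921, minus strand), and Lars2, the leucyl enzyme (chr9:123366777-123366926, plus), with the core in capitals. Aars2, the mitochondrial alanyl enzyme (chr17:45506682-45506831, plus), is shown because its pre-mRNA was the only member called in any fit with the replicate as a block between +IAA and -IAA on the deposited scale, and it has no capitals because the core was not found in its window.
Cars2: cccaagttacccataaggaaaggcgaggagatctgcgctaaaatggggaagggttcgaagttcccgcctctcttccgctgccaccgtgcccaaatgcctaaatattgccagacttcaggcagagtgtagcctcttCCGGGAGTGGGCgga
Lars2: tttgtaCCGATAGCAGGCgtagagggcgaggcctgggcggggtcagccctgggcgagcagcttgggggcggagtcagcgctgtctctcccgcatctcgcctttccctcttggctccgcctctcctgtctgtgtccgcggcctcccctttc
Aars2: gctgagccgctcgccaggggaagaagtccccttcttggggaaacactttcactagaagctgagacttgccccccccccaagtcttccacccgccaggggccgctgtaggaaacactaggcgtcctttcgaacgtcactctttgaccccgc

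The tables held TPM without read counts, so depth was unknown. Summed TPM over the listed genes ran from 13746.9 to 42575.8 in CCNA-GFP and from 17701.5 to 43370.2 in CTCF-AID, so libraries differed in total, and every stage comparison was also made with every library brought to the same total. The ES cell genes Pou5f1 and Nanog averaged 12.1 ± 3.5 and 7.11 ± 1.75 TPM (SD, n = 3) in asynchronous CCNA-GFP cells, and 7 of 8 ES markers were listed in both tables (Sox2 was not). Of 12 markers of other lineages, 2 were listed in CCNA-GFP (Eomes and Pax6) and 5 in CTCF-AID. Their summed level was 0.105 to 0.432 TPM in mitotic and 1.71 to 2.58 TPM in 60 min CCNA-GFP libraries, 0.708 to 0.777 and 4.00 to 9.81 TPM in -IAA libraries, and 0.703 to 0.907 and 5.27 to 9.06 TPM in +IAA libraries. These sums rose several-fold from mitosis to 60 min, in the direction of most genes, but the size of the rise was not compared with that of all genes. Libraries of a stage also differed, as for Cdx2 at 0.495 and 3.51 TPM in 60 min -IAA cells. The part of these markers in the results was not tested. Another protein-coding gene overlaps Mars (Ddit3), Hars and Hars2 (each other), Farsb (Sgpp2), Wars (Wdr25), Yars (C77080), Cars2 (Naxd), Ears2 (Ubfd1), Fars2 (Lyrm4 and Nrn1) and Iars2 (Rab3gap2) on the opposite strand and Aars (Exosc6) on the same strand, so the values of these genes are uncertain where reads could be shared. The pre-mRNA of Ctcf does not check the depletion, which acts on the protein.

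In asynchronous CCNA-GFP cells the cytosolic genes had higher pre-mRNA than the mitochondrial ones, with median levels of 2.70 and 1.52 TPM. Cars, for the cysteinyl enzyme, was the highest cytosolic gene at 4.62 ± 2.74 TPM (SD, n = 3), and Hars, for the histidyl enzyme, the lowest at 1.47 ± 0.34 TPM. Among mitochondrial genes Yars2, for the tyrosyl enzyme, reached 4.78 ± 0.82 TPM, above Cars, while Iars2, for the isoleucyl enzyme, was at 0.603 ± 0.186 TPM. Neighbours in this order did not differ beyond their spread: Lars2 at 0.610 ± 0.127 TPM lay next to Iars2, and Cars next to Vars, the valyl gene, at 4.31 ± 1.46 TPM. The third asynchronous CCNA-GFP library was above the other two for each gene named in this paragraph, for example 7.79 TPM against 3.13 and 2.95 TPM for Cars. Medians were 3.20 and 1.65 TPM in -IAA and 3.31 and 1.52 TPM in +IAA asynchronous cells, again higher for the cytosolic class. TPM is per transcript length, and the tables of the lines were made separately, so their levels are set side by side without a test.

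The first question was when synthetase genes regain transcription after mitosis. In CCNA-GFP, every cytosolic gene was higher at 60 min than in mitosis on the deposited scale, led by Qars, Tars and Nars, whereas fewer mitochondrial genes were, and Tars2 and Fars2 had differences near 0. With limma and adjustment over all genes, 0 of 20 cytosolic and 0 of 15 mitochondrial members were called higher at 20 min (0.0% of all genes were) and again 0 and 0 at 30 min (0.303% of all genes). At an unadjusted p below 0.05, 253 genes and 1 member passed at 20 min and 1135 genes and 2 members at 30 min. At 40 min, 10 cytosolic and 4 mitochondrial members were higher (49.3% of all genes), and at 60 min 20 and 12 were (88.3%). Some of the 60 min calls in both classes were lost when a single library was left out, among them those of Eprs and Farsb. The 40 min counts became 5 and 2 without 40 min replicate 1, and the mitochondrial count 2 without mitotic replicate 1 or 3. They were 4 and 1 without the replicate block, a fit whose share of all genes is not given. With the same total they were 4 and 0 (23.7% of all genes), where 9 and 10 were lower (31.3%). The counts were 20 and 12 at 90 min (89.1%) and 20 and 14 at 120 min (90.2%), but with the same total 7 and 2 at either stage (31.8% and 28.7% of all genes). No member was called lower than mitosis at any CCNA-GFP stage on the deposited scale. Lower calls were rare among all genes too: 0.0404% (40 min), 0.515% (60 min), 0.948% (90 min), 0.656% (120 min) and 1.97% (asynchronous cells). With shares this small, the lack of lower calls does not set the members apart from all genes. The authors kept genes by their level in asynchronous cells or after release, so a gene high in mitosis alone could not be listed. How far this choice shaped the shares of higher and lower calls was not tested. Libraries scaled to the same total gave another split: at 60 min 9 cytosolic genes were higher and 7 lower, and 2 mitochondrial genes were higher and 9 lower, where 36.4% of all genes were higher and 33.3% lower.

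**Figure D1:**
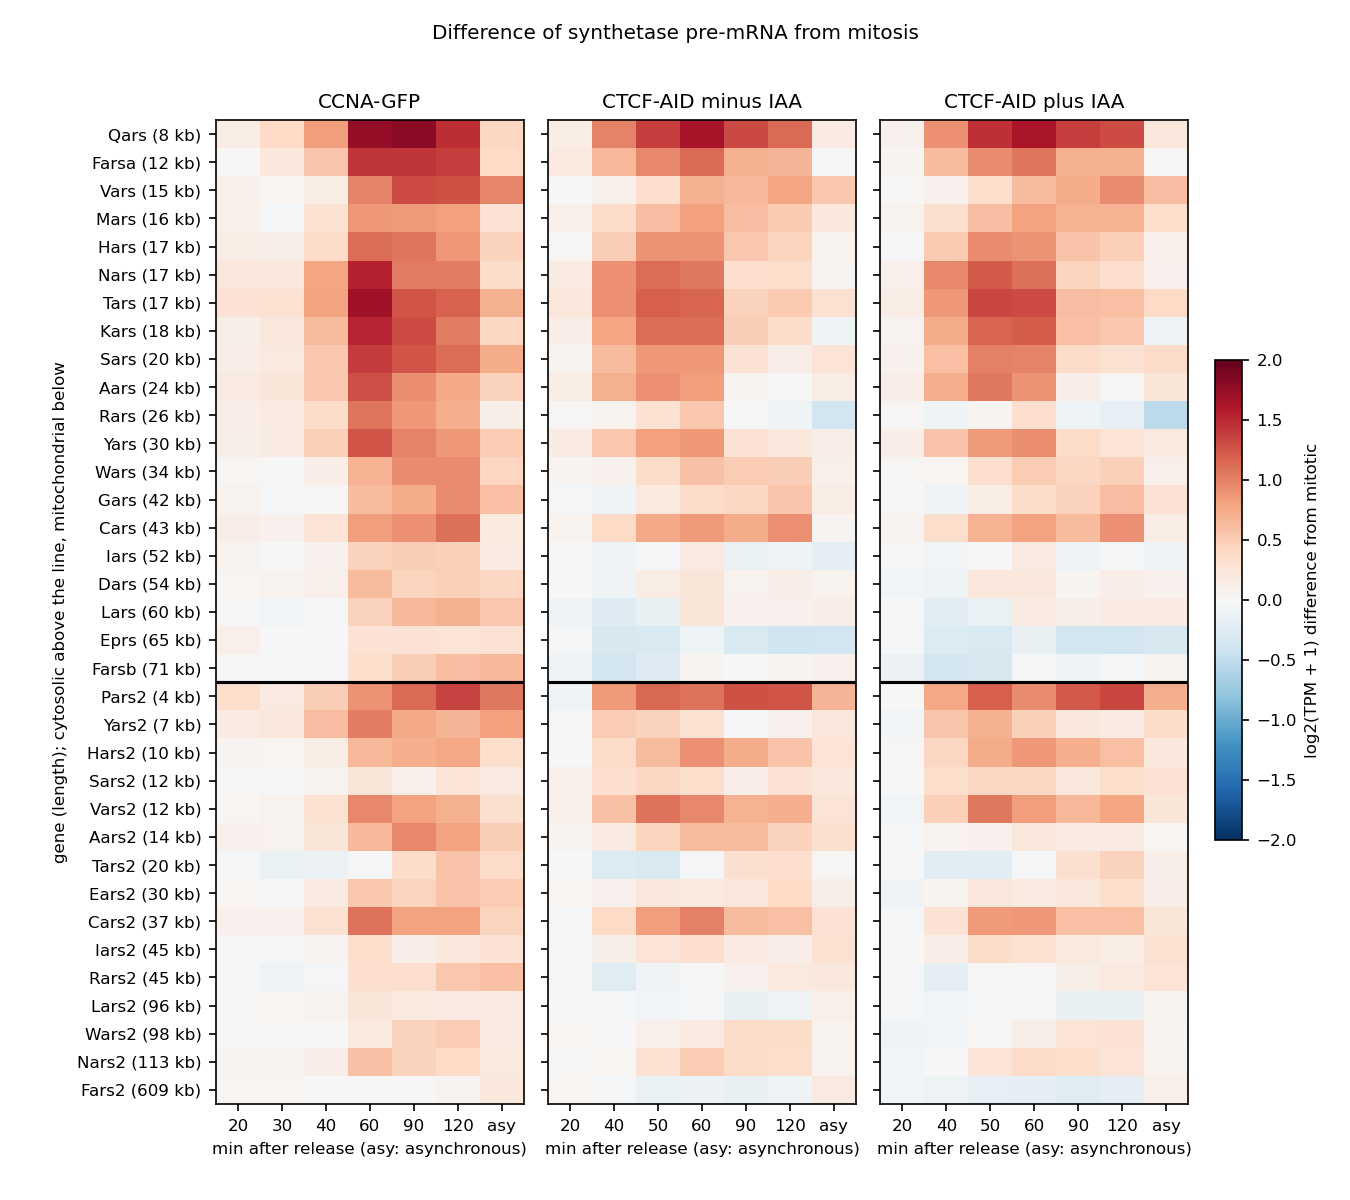
Difference of each of the 35 synthetase pre-mRNAs from mitosis on the log2(TPM + 1) scale (colour), by minutes after release or in asynchronous cells (columns), in CCNA-GFP, -IAA and +IAA cells. Genes are ordered by length within each class, and Qars at the top has the largest 60 min difference in every panel (1.76, 1.64 and 1.63) while Eprs, Farsb and Fars2 stay near or below 0 in the CTCF-AID panels.

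On the log2(TPM + 1) scale the largest rises belonged to compact cytosolic genes. By the ratio of mean TPM Tars (5.51-fold) was ahead of Qars (5.09-fold). Qars, the glutaminyl enzyme and a member of the multi-tRNA synthetase complex (chr9:108507706-108515941, plus strand, GENCODE vM21 on GRCm38), was at 1.08, 1.10 and 1.35 TPM in mitotic CCNA-GFP libraries. It reached 2.71 and 2.55 TPM at 40 min, 7.15 and 4.81 TPM at 60 min and 5.66 and 8.31 TPM at 90 min. From 40 to 90 min all Qars libraries were above the 3 mitotic ones, and its 60 min difference was 1.76 (SE 0.14, adjusted p = 9.22e-10). Tars, the threonyl enzyme (chr15:11382301-11399665, minus), rose from 0.836, 0.731 and 0.872 TPM to 5.17 and 3.78 TPM at 60 min. Its difference was 1.67 (SE 0.14, adjusted p = 1.73e-09), a 5.51-fold ratio of mean TPM. Nars, the asparaginyl enzyme, followed with 1.78, 1.56 and 1.97 TPM in mitosis and 7.46 and 5.52 TPM at 60 min (1.53, SE 0.16, adjusted p = 1.67e-08). Kars, the lysyl enzyme, which serves cytosol and mitochondria, came next at 1.52, and Farsa, the alpha subunit of the phenylalanyl enzyme, at 1.43.

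The smallest cytosolic rises were those of Eprs and Farsb. Eprs, the fused glutamyl and prolyl enzyme of the complex (chr1:185363044-185428360, plus), was at 1.85, 1.49 and 2.08 TPM in mitosis and 2.82 and 1.63 TPM at 60 min, so the 2 groups overlapped. Its difference of 0.30 (SE 0.12) had an adjusted p of 0.0318, became 0.07 (adjusted p = 0.627) without 60 min replicate 1 and 0.25 (adjusted p = 0.0912) without mitotic replicate 3, and turned to -0.63 with every library brought to the same total. Farsb, the beta subunit of the phenylalanyl enzyme (chr1:78417975-78488897, minus), was at 1.78, 1.56 and 2.16 TPM in mitosis and 2.85 and 1.84 TPM at 60 min. Its difference of 0.34 (SE 0.12, adjusted p = 0.0133) became 0.19 (adjusted p = 0.235) without 60 min replicate 1 and turned to -0.59 with the same total. The alpha subunit of the same enzyme, Farsa, is the gene named above with 1.43.

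The 8 members of the complex (Eprs, Iars, Lars, Mars, Qars, Rars, Kars and Dars) spanned 0.30 to 1.76 at 60 min in CCNA-GFP, and their median of 0.75 was close to the 0.79 of all genes. The other 12 cytosolic genes had a median of 1.19. In the CTCF-AID line the medians were 0.39 and 0.86 in -IAA and 0.28 and 0.90 in +IAA, where all genes had 0.63 in both. Scaled to the same total, the complex lay below the median of all genes by 0.27, 0.46 and 0.60 in CCNA-GFP, -IAA and +IAA, and the other cytosolic genes above it by 0.31, 0.05 and 0.13. By the fold of the catalytic domain, with the fused Eprs counted in class I although its prolyl part is of class II, the 18 class I genes had a median of 0.77 in CCNA-GFP, 0.44 in -IAA and 0.40 in +IAA, and the 17 class II genes 0.67, 0.83 and 0.86. On the same-total scale class I stood below class II in all 3 arms, at -0.21 against -0.07, -0.25 against 0.05 and -0.27 against 0.12, so the order in CCNA-GFP flipped. Qars and Kars were above the median of all genes on both scales in all 3 arms, and Eprs, Iars, Lars and Dars below it.

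Among mitochondrial genes, the 3 largest rises in CCNA-GFP were those of Cars2, Yars2 and Vars2. Cars2 (chr8:11513977-11550783, minus) was at 1.18, 0.664 and 1.41 TPM in mitosis and 3.77 and 2.19 TPM at 60 min, with a difference of 1.08 (SE 0.12, adjusted p = 5.52e-08). Yars2 (chr16:16302965-16309640, plus) was at 2.58, 2.03 and 2.19 TPM in mitosis and 6.01 and 5.02 TPM at 60 min. Its difference of 1.03 (SE 0.13, adjusted p = 2.63e-07) was above the median of all genes, but became -0.03 with the same total. Vars2, the mitochondrial valyl enzyme (chr17:35655634-35667592, minus), rose from 0.662, 0.631 and 0.590 TPM to 2.40 and 1.87 TPM, with no overlap (0.97, SE 0.12, adjusted p = 1.99e-07). Pars2, the mitochondrial prolyl enzyme and the shortest gene of all members (4.2 kb), was at 2.93 and 1.98 TPM at 60 min and 3.63 and 3.72 TPM at 120 min, a later rise that passed the test (0.45, adjusted p = 0.00865).

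Tars2 and Fars2 were not called at 60 min. Tars2, the mitochondrial threonyl enzyme (chr3:95739976-95760206, minus), was at 2.02, 1.79 and 2.19 TPM in mitosis, 1.58 and 1.64 TPM at 40 min and 1.94 and 1.59 TPM at 60 min. It stood at 2.96 and 3.09 TPM at 90 min and 3.05 and 3.38 TPM at 120 min, above every mitotic library. Its difference was -0.03 (SE 0.12, adjusted p = 0.793) at 60 min and 0.57 (SE 0.12, adjusted p = 0.000174) at 120 min. Fars2, the mitochondrial phenylalanyl enzyme and with 608.9 kb the longest member (chr13:36117412-36726280, plus), was between 0.424 and 0.772 TPM in all 16 libraries from mitosis to 120 min. Its 60 min difference was -0.01 (SE 0.08, adjusted p = 0.905). Wars2, the tryptophanyl enzyme, was the third mitochondrial gene not called at 60 min (0.19, adjusted p = 0.0692).

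In CTCF-AID cells Qars again had the largest 60 min difference, but several genes were lower after release than in mitosis. At 40 min, 11 cytosolic and 6 mitochondrial members were called higher in -IAA (63.3% of all genes), and 11 and 7 in +IAA (58.7%). These counts were 7 and 3 in both arms without the replicate block, a fit whose share of all genes is not given. With the same total they became 7 and 2 in -IAA (33.3% of all genes) and 9 and 1 in +IAA (33.2%), and without 40 min replicate 1 of its arm the mitochondrial count was 3 in -IAA and 4 in +IAA. On the deposited scale with the block, 3 cytosolic members (Eprs, Farsb and Lars) were lower at 40 min in both arms, and the mitochondrial members lower were Rars2 and Tars2 in -IAA and Rars2 in +IAA, where 3.21% and 3.87% of all genes were lower. At 60 min, 17 cytosolic and 11 mitochondrial members were higher in -IAA (84.8% of all genes), and 16 and 9 in +IAA (82.2%). Qars was at 1.72, 0.854 and 1.37 TPM in mitotic and 6.03 and 5.50 TPM in 60 min -IAA libraries, and at 1.28, 1.23 and 1.26 TPM and 5.72 and 5.47 TPM in +IAA, with differences of 1.64 (adjusted p = 1.53e-10) and 1.63 (adjusted p = 1.44e-10). Brought to the same total, the 60 min split in -IAA was 7 cytosolic genes higher and 8 lower, and 4 mitochondrial genes higher and 8 lower (39.4% and 31.1% of all genes). In +IAA it was 8 and 8, and 3 and 10 (40.7% and 33.2%).

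Eprs was called lower than mitosis in 10 of the 14 comparisons of the CTCF-AID arms. In -IAA it was at 5.44, 4.44 and 6.08 TPM in mitosis and 3.67 and 3.66 TPM at 40 min, below every mitotic library (-0.33, SE 0.09, adjusted p = 0.00198). In +IAA it was at 5.58, 4.36 and 5.79 TPM in mitosis and 3.96 and 3.60 TPM at 40 min (-0.28, SE 0.09, adjusted p = 0.00816). Its level in asynchronous cells was also lower than in mitosis, by 0.38 (adjusted p = 0.00052) and 0.32 (adjusted p = 0.00185) on the log2 scale. At 40 min the calls of Eprs were lost without 40 min replicate 1 of either arm (-0.24 and -0.24, adjusted p = 0.0776 and 0.0808) and without +IAA mitotic replicate 1 (-0.22, adjusted p = 0.0531). Mitotic Eprs pre-mRNA was at 1.81 TPM on average in CCNA-GFP, against 5.32 TPM in -IAA and 5.24 TPM in +IAA, in tables made separately.

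Farsb fell by 0.36 on the log2 scale at 40 min in both arms (adjusted p = 0.00377 and 0.00422), and in -IAA it was at 3.85, 3.22 and 5.10 TPM in mitosis and 2.75 and 2.45 TPM at 40 min. Without -IAA 40 min replicate 1 its adjusted p was 0.0532. Lars, the leucyl enzyme, was at 2.41, 1.81 and 2.64 TPM in mitotic and 1.68 and 1.45 TPM in 40 min -IAA libraries, and at 2.34, 1.72 and 2.50 TPM and 1.67 and 1.39 TPM in +IAA. Its 40 min libraries lay below every mitotic one of their arm, and it fell by 0.26 and 0.23. Rars2, the mitochondrial arginyl enzyme, was at 2.31, 1.90 and 2.56 TPM and 1.75 and 1.42 TPM at these stages in -IAA, and at 2.04, 1.74 and 2.48 TPM and 1.73 and 1.37 TPM in +IAA, and fell by 0.24 and 0.18. Tars2 fell by 0.28 in -IAA (adjusted p = 0.0159) and had -0.21 in +IAA (adjusted p = 0.0679). Fars2 was lower at 50 min in both arms (-0.13 and -0.17, where 1 of 2 same-numbered pairs was lower in -IAA) and at 60 min in +IAA (-0.19, adjusted p = 0.00439), and Lars2 was lower at 90 min (-0.15 in each arm) and, in +IAA, at 120 min (-0.16). Over all comparisons of the CTCF-AID arms with mitosis, Fars2 was called lower in 6, Farsb in 4 and Tars2 in 3. Not all of these are described here. Lars2 was at 0.522, 0.513 and 0.673 TPM in mitosis and 0.394 and 0.500 TPM at 90 min in -IAA. In +IAA it was at 0.554, 0.441 and 0.698 TPM in mitosis and 0.359 and 0.534 TPM at 90 min, where the groups overlapped but both same-numbered pairs were lower. Rars, the arginyl enzyme, was lower in asynchronous than in mitotic cells, by 0.38 in -IAA and 0.52 in +IAA. With the same total all of the 40 min differences in this paragraph kept their direction, and Farsb had -0.88 in -IAA and -0.85 in +IAA.

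**Figure D2:**
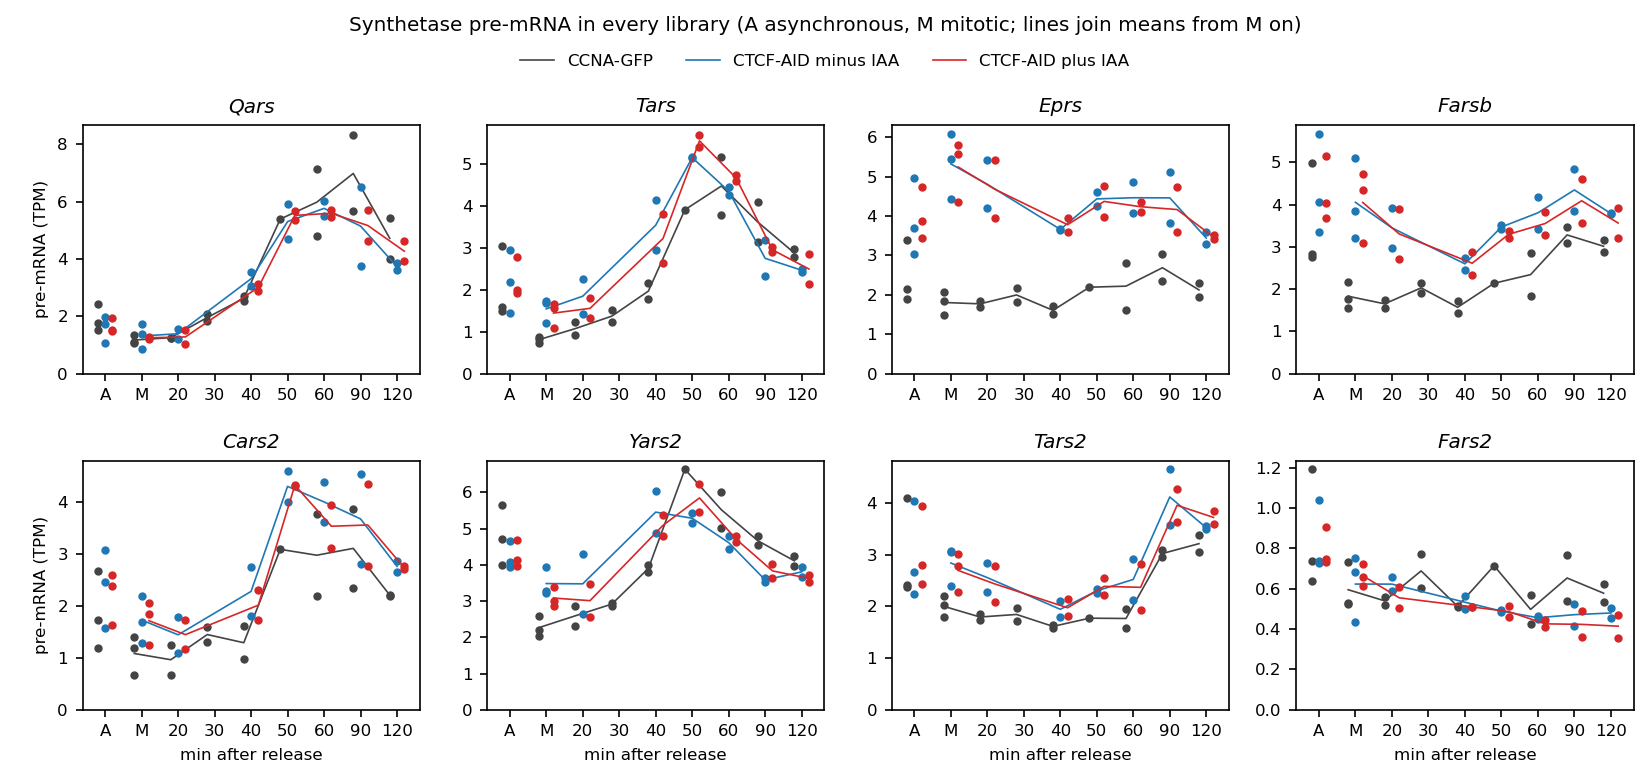
Pre-mRNA (TPM) of 8 synthetase genes in every library of CCNA-GFP (grey), -IAA (blue) and +IAA (red) cells, for asynchronous (A) and mitotic (M) cells and by minutes after release; each point is 1 library and lines join the means from M on. Qars and Tars peak at 50 to 90 min, Eprs and Farsb dip at 40 min in CTCF-AID, among release stages Tars2 is highest at 90 or 120 min in all 3 arms, and Fars2 shows no peak.

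The stage of the highest mean level was taken over stages with 2 libraries. In -IAA, 10 of 20 cytosolic genes peaked at 50 min, and the peak was at 60 min in 3 and at 90 min in 6. In +IAA, 11 cytosolic genes peaked at 50 min, while 60 min held 2, 90 min held 5 and 120 min held 1. Eprs was the exception in both arms, with its highest release level at 20 min. In CCNA-GFP, whose single 50 min library was left out, 6 cytosolic genes peaked at 60 min and 14 at 90 min. Of the 15 mitochondrial genes, 8 peaked at 90 min in CCNA-GFP, the commonest stage in both classes there, with 3 each at 60 and 120 min and 1, Fars2, at 30 min. In -IAA the mitochondrial peaks were at 50 min in 4 and at 90 min in 5, with 2 each at 60 and 120 min and 1 each at 20 and 40 min. In +IAA 7 peaked at 50 min, again the commonest stage in both classes, with 4 at 90 min, 3 at 120 min and 1 at 20 min. Libraries at 90 min came from replicates 1 and 3 and those at 60 min from replicates 1 and 2, so peak stages are descriptions, and no difference between the classes was tested.

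From 60 to 120 min, cytosolic genes such as Tars and Aars declined about as often as all genes did, and the members called higher on the deposited scale were mitochondrial. The difference between the classes was not tested. In CCNA-GFP, 5 cytosolic genes (Aars, Kars, Nars, Tars and Yars) were called lower at 120 min than at 60 min and 0 mitochondrial ones (28.5% of all genes), while 3 mitochondrial genes (Pars2, Tars2 and Wars2) were called higher and 0 cytosolic ones (9.6%). In -IAA the lower calls were 11 cytosolic and 5 mitochondrial (53.1%), and in +IAA 10 and 4 (50.8%). The higher calls were 0 cytosolic and 4 mitochondrial in -IAA (Ears2, Rars2, Tars2 and Wars2; 7.31%) and 0 and 2 in +IAA (Pars2 and Tars2; 7.61%). With the same total, the cytosolic genes split into 6 higher and 5 lower in CCNA-GFP, 6 and 8 in -IAA and 7 and 8 in +IAA, and the mitochondrial genes into 5 higher and 0 lower in each. On that scale 24.4%, 25.6% and 26.6% of all genes were higher and 21.7%, 26.5% and 27.2% lower. The 5 lower calls of CCNA-GFP became 0 without the replicate block, without 60 min replicate 1 or without 120 min replicate 1, and 10 without 60 min replicate 2. Without the replicate block, and likewise without 120 min replicate 1 of its arm, the 16 lower calls of -IAA became 9 and the 14 of +IAA became 8, and without 60 min replicate 2 those of +IAA became 9. The shares of all genes called without the block or without a library are not given for this comparison.

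Tars and Tars2, the threonyl pair, moved in opposite directions over this hour. Tars fell by 0.49 in CCNA-GFP (SE 0.15, adjusted p = 0.0172), 0.63 in -IAA (adjusted p = 0.000545) and 0.71 in +IAA (adjusted p = 0.000165). Tars2 rose by 0.61 (SE 0.13, adjusted p = 0.00116), 0.37 (adjusted p = 0.00492) and 0.50 (adjusted p = 0.000388). With the same total the directions held, with -0.31, -0.30 and -0.39 for Tars and 0.68, 0.64 and 0.77 for Tars2. Against the median of all genes, 10, 13 and 12 of the 15 mitochondrial genes stood above it in CCNA-GFP, -IAA and +IAA, and 9, 13 and 15 with the same total. The cytosolic genes above it numbered 10, 8 and 10 of 20.

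Asynchronous cells were also compared with mitotic cells. In the CTCF-AID table the headers of the asynchronous columns are misspelt, and these columns were assigned by the arm, stage ending and replicate number that remain, so the asynchronous CTCF-AID values throughout rest on that reading. In CCNA-GFP, 16 cytosolic and 13 mitochondrial members were higher in asynchronous cells (70.4% of all genes). In -IAA the counts were 3 and 9 (34.3%) and in +IAA 6 and 7 (40.9%), and with the same total 5 and 6, 2 and 5, and 3 and 4 in CCNA-GFP, -IAA and +IAA (24.8%, 27.2% and 29.8% of all genes). Pars2 had the largest such difference in all 3 arms, at 1.06, 0.67 and 0.73, and among cytosolic genes Vars did, at 0.97, 0.54 and 0.62. The calls in CCNA-GFP became 8 and 8 without the replicate block (46.7% of all genes), and the mitochondrial ones 7 without asynchronous replicate 3. Leaving out each library in turn gave 12 to 19 cytosolic and 7 to 15 mitochondrial calls, in fits whose share of all genes is not given.

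The central comparison, cytosolic against mitochondrial, was made on the 60 min difference from mitosis. The cytosolic genes had a median difference of 1.03 in CCNA-GFP, 0.82 in -IAA and 0.81 in +IAA, and the mitochondrial genes 0.54, 0.33 and 0.30, with 0.79, 0.63 and 0.63 over all genes. As ratios of mean TPM these were medians of 2.31-fold against 1.89-fold, 1.83-fold against 1.36-fold and 1.84-fold against 1.44-fold. Scaled to the same total, the median of all genes was 0.02, 0.06 and 0.06, the mitochondrial median stayed below it at -0.21, -0.21 and -0.30, and the cytosolic median, above it as deposited with a pseudocount of 1, was at -0.04, 0.05 and 0.03. With a pseudocount of 0.1 in place of 1, the cytosolic median averaged over replicates was also below that of all genes, at 1.25 against 1.27, 0.92 against 1.00 and 0.90 against 0.99. Among genes with a mean of 1 TPM or more, the CTCF-AID arms had 0.73 against 0.72 and 0.72 against 0.72. The position of the cytosolic genes relative to all genes therefore depended on the scale, while the mitochondrial median was below that of all genes in each of these settings. Of the 15 mitochondrial genes, 4, 5 and 4 were above the median of all genes, and 3, 4 and 4 with the same total. Of the 20 cytosolic genes, 13, 12 and 12 were, and 9 in each with the same total.

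Within single replicates, the cytosolic median exceeded the mitochondrial one by 0.62 and 0.35 in CCNA-GFP (mean 0.48, SD 0.20, n = 2), by 0.34 and 0.50 in -IAA (0.42, SD 0.12) and by 0.32 and 0.59 in +IAA (0.45, SD 0.19). All 6 values had the same direction, but those of -IAA and +IAA share replicate numbers of 1 clone and are not independent. With the same total the excess was 0.16 (SD 0.19), 0.18 (SD 0.21) and 0.26 (SD 0.06), with single replicates of CCNA-GFP and -IAA as low as 0.025 and 0.032, so in those arms it was within the spread of the replicates. Leaving out Gars and Kars, whose genes encode the cytosolic and the mitochondrial form of their enzymes, could not move these medians, because in each replicate Gars lay below and Kars above the middle of the cytosolic genes.

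For 12 amino acids both genes were listed, and the cytosolic gene had the larger 60 min difference in 11 pairs in CCNA-GFP, 8 in -IAA and 9 in +IAA. The median excess within pairs was 0.48, 0.34 and 0.36. By the ratio of mean TPM, which has no pseudocount and was added after seeing the data, the cytosolic gene was ahead in 8, 7 and 9 pairs. On that scale the isoleucyl (1.38-fold for Iars, 1.99-fold for Iars2), leucyl (1.44-fold for Lars, 1.49-fold for Lars2) and valyl pairs of CCNA-GFP also reversed, as did the alanyl pair of -IAA. The threonyl pair was the widest, with 1.67 for Tars and -0.03 for Tars2 in CCNA-GFP, 1.16 and -0.03 in -IAA and 1.30 and -0.04 in +IAA. On the log2(TPM + 1) scale the cysteinyl pair was reversed in all 3 arms, with 0.84 for Cars and 1.08 for Cars2 in CCNA-GFP, 0.85 and 1.01 in -IAA and 0.81 and 0.87 in +IAA. The valyl and isoleucyl pairs were reversed in both CTCF-AID arms, as were Hars and Hars2 in -IAA by 0.01. In asynchronous cells the cytosolic gene had the higher level in 9 of 12 pairs in each arm, and the exceptions were Hars2, Tars2 and Yars2, at 2.01, 2.97 and 4.78 TPM against 1.47, 2.05 and 2.40 TPM in CCNA-GFP.

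**Figure D3:**
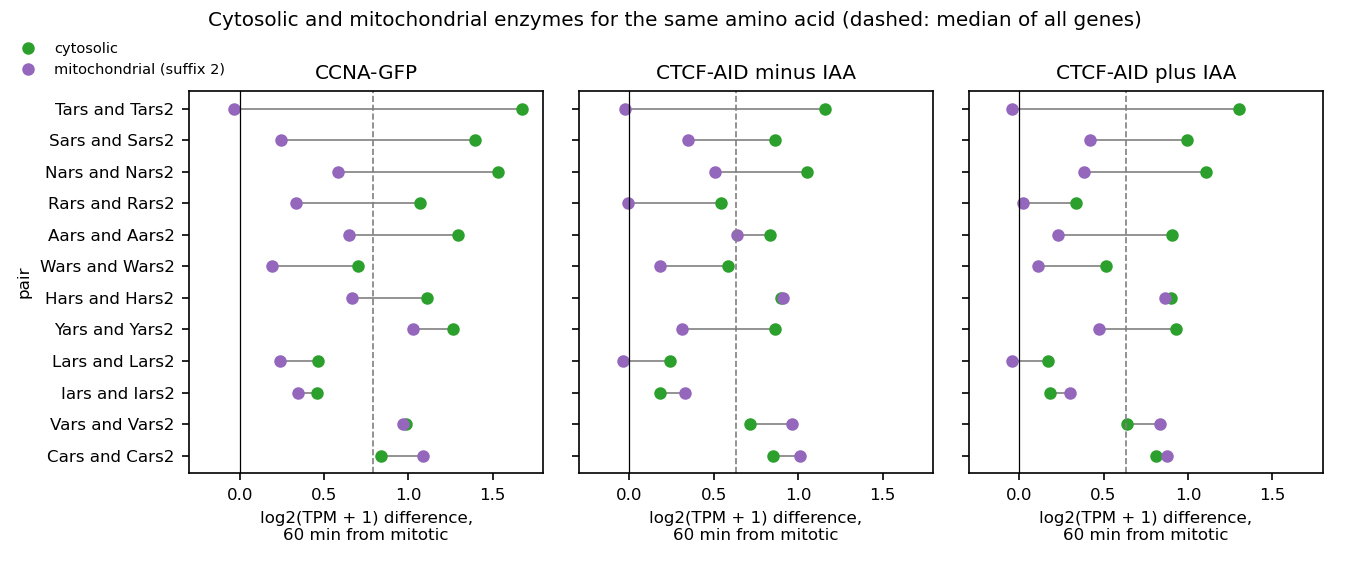
Difference at 60 min from mitosis, log2(TPM + 1), of the cytosolic (green) and mitochondrial (purple) gene for each of 12 amino acids in CCNA-GFP, -IAA and +IAA cells; the dashed line is the median of all genes. Green lies to the right in 11, 8 and 9 pairs (8, 7 and 9 by the ratio of mean TPM), and the dashed line, at 0.79, 0.63 and 0.63, moves to 0.02, 0.06 and 0.06 with every library brought to the same total.

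Gene length accompanied the early differences within both classes. Across the 35 members, which share libraries and a single normalisation per library, Spearman's rho between gene length and the 40 min difference was -0.66 in CCNA-GFP, -0.70 in -IAA and -0.72 in +IAA. It was -0.78, -0.78 and -0.76 within the 20 cytosolic genes and -0.65, -0.74 and -0.78 within the 15 mitochondrial ones. Over all genes with a gene model (9885 in CCNA-GFP and 10209 in CTCF-AID) it was -0.54, -0.59 and -0.63, a relation of the same sign as among the synthetases. At 60 min the members had -0.58, -0.68 and -0.67. These correlations are across genes, which are not independent replicates, and they kept their sign with the same total (-0.57, -0.66 and -0.64 at 40 min).

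A length of 40 kb, chosen after the values were seen, divided the members into 22 shorter and 13 longer genes. At 40 min the shorter genes had a median difference of 0.37 in CCNA-GFP, 0.50 in -IAA and 0.50 in +IAA, and the longer ones 0.03, -0.08 and -0.08. All genes had 0.36 and 0.10 in CCNA-GFP, 0.48 and 0.09 in -IAA and 0.45 and 0.03 in +IAA. Qars (8.2 kb), Nars and Tars (17.4 kb) were among the short genes, and Eprs (65.3 kb), Farsb (70.9 kb), Lars (59.9 kb) and Rars2 (45.2 kb), which fell at 40 min in CTCF-AID, among the long ones. Tars2 was an exception, with 20.2 kb and no rise at 60 min.

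**Figure D4:**
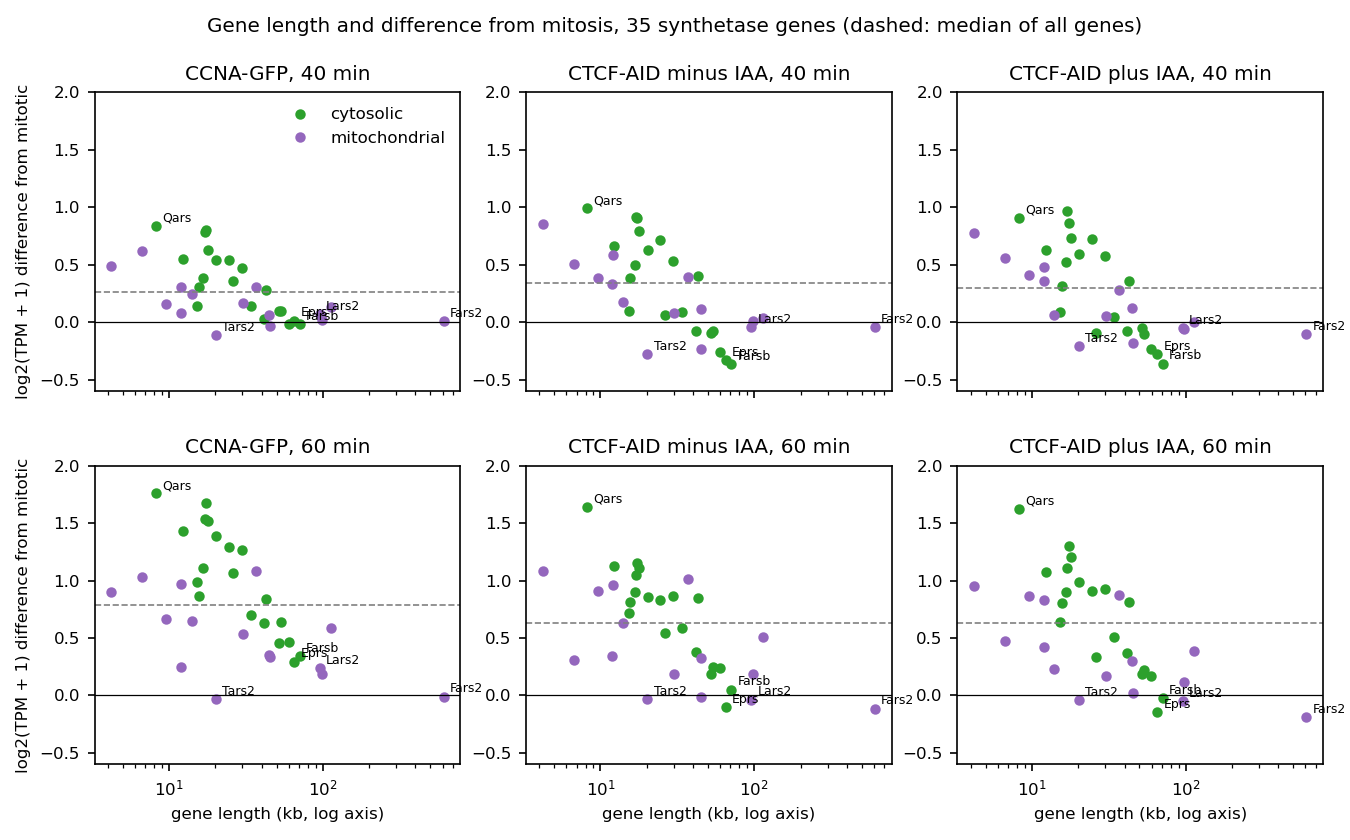
Difference from mitosis, log2(TPM + 1), against gene length (kb, log axis) for 35 cytosolic (green) and mitochondrial (purple) synthetase genes at 40 min (top) and 60 min (bottom) in CCNA-GFP, -IAA and +IAA cells; the dashed line is the median of all genes. Points descend from Qars at the left to Eprs and Farsb, and Tars2 lies below genes of like length.

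The last comparison asked whether loss of CTCF changed synthetase pre-mRNA. No member was called between +IAA and -IAA at any stage by limma without a replicate block, at an adjusted p below 0.1 and a log2 difference over 0.2. The interaction of IAA with release at 60 min was not called for any member either. The share of all genes called was 1.01% in asynchronous cells, 0.0% in mitosis and at both 20 and 40 min, 0.283% at 50 min and 0.225% at 60 min. Later stages had 0.733% (90 min) and 0.586% (120 min) of genes called, and the interaction had 0.0%. At an unadjusted limma p below 0.05, genes passing numbered 286, 23, 31, 85, 199, 182, 246, 215 and 79 in the same order. Of the members only Aars2 passed this looser limit, in the 60 and 90 min comparisons. With the replicate number as a block, Aars2 was called lower at 90 min (-0.50, SE 0.12, adjusted p = 0.0389, where 1.26% of all genes were called lower). That call was lost without -IAA 90 min replicate 3 (-0.26, adjusted p = 0.788), without +IAA 90 min replicate 1 (-0.43, adjusted p = 0.511) and without +IAA 90 min replicate 3 (-0.56, adjusted p = 0.133).

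Aars2 and Rars are described here because of their values. Aars2 (chr17:45506841-45520843, plus strand) was at 1.43, 1.26 and 2.25 TPM in asynchronous -IAA cells and at 1.16, 0.790 and 1.38 TPM in +IAA cells. At 60 min it was at 2.09 and 1.92 TPM in -IAA and 1.34 and 1.11 TPM in +IAA, and at 90 min at 1.73 and 3.32 TPM and 1.15 and 1.76 TPM. The groups did not overlap at 50, 60 and 120 min, and +IAA was lower in every same-numbered pair at every stage except 1 of 3 mitotic pairs. The difference at 60 min was -0.44 (SE 0.19, adjusted p = 1). Aars2 rose from mitosis to 60 min by 0.63 in -IAA (adjusted p = 1.91e-05) and had 0.23 in +IAA (adjusted p = 0.0665), and the interaction was -0.41 (SE 0.25, adjusted p = 1).

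Rars (chr11:35808381-35834506, minus strand), the arginyl enzyme of the complex, was lower in +IAA in every same-numbered pair at all 8 stages. It was at 5.89, 4.67 and 6.87 TPM in asynchronous -IAA cells and at 4.74, 3.84 and 5.53 TPM in +IAA cells, which overlapped. At 60 min it was at 11.2 and 10.8 TPM in -IAA and 8.81 and 8.42 TPM in +IAA, with no overlap there or at 40, 50 and 120 min. The 60 min difference was -0.32 (SE 0.18, adjusted p = 1). In the limma fit with the replicate block its SE was 0.11 (adjusted p = 0.454), again without a call. With every library brought to the same total, Rars was called lower in asynchronous cells (-0.27, adjusted p = 0.00282), at 50 min (-0.36, adjusted p = 0.00366) and at 60 min (-0.29, adjusted p = 0.0289), and Aars2 in asynchronous cells (-0.35, adjusted p = 0.0517) and at 90 min (-0.46, adjusted p = 0.0428). The share of all genes called between the arms on that scale is not given, so these calls are not set against a background.

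**Figure D5:**
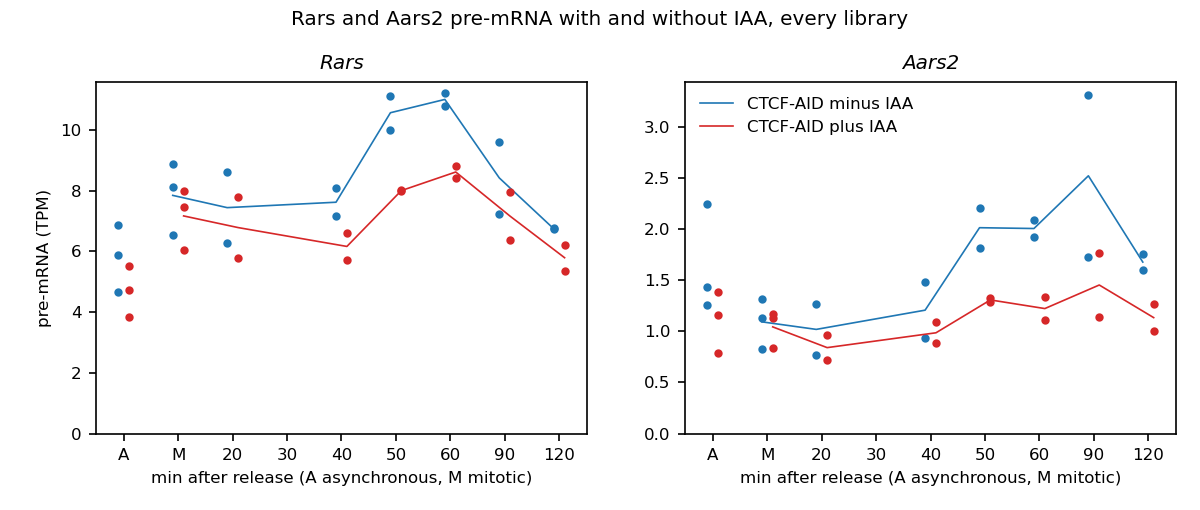
Pre-mRNA (TPM) of Rars and Aars2 in every CTCF-AID library without IAA (blue) and with IAA (red), for asynchronous (A) and mitotic (M) cells and by minutes after release; each point is 1 library and lines join the means from M on. At 60 min the -IAA libraries lie above the +IAA ones, at 11.2 and 10.8 against 8.81 and 8.42 TPM for Rars and at 2.09 and 1.92 against 1.34 and 1.11 TPM for Aars2.

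Other genes of tRNA charging were read at 60 min from lists chosen by function, against the same backgrounds as above. All 3 scaffold genes of the complex were higher in each of the 3 arms on the deposited scale, with 1.44 for Aimp2 and 0.77 for Aimp1 in CCNA-GFP, but with the same total 1 was higher and 2 were lower in each. Of 8 listed genes for other charging steps, 6 were higher in CCNA-GFP and 5 in each CTCF-AID arm, and 7 of the 8 lay below the median of all genes in each arm on either scale. Gatc, a subunit of the amidotransferase that completes mitochondrial glutaminyl-tRNA, had the largest difference (1.39), and Dtd1, which removes D-amino acids from tRNA, the smallest. Its fitted difference was 0.02 (adjusted p = 0.839), while its mean was 0.348 TPM at 60 min against 0.379 TPM in mitosis and both same-numbered pairs were lower, so it has no direction. Of the elongation factor genes, which encode the carriers of charged tRNA (Eef1a1 and Tufm) and the exchange factors that recharge them with GTP (Eef1b2, Eef1d, Eef1g and Tsfm), 5 of 6 were higher in CCNA-GFP and 3 of 5 in each CTCF-AID arm. Tufm, the mitochondrial factor, had 2.01 in CCNA-GFP, while Eef1g was lower in -IAA (-0.30, adjusted p = 0.013) and +IAA (-0.41, adjusted p = 0.00141).

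The amino acid response genes, whose promoters ATF4 is known to bind, were higher at 60 min in 12 of 12 cases in CCNA-GFP, 9 of 12 in -IAA and 11 of 12 in +IAA, beside 88.3%, 84.8% and 82.2% of all genes. With the same total 6, 4 and 4 were higher (36.4%, 39.4% and 40.7% of all genes) and 2, 1 and 2 lower (33.3%, 31.1% and 33.2%), and the list's median stayed above that of all genes, by 0.29, 0.05 and 0.14. Ddit3, a transcription factor of the stress response, led in CCNA-GFP with 2.11, and it overlaps Mars, the methionyl gene, on the opposite strand. Sesn2, an inhibitor of mTORC1 signalling, had 2.05, Asns, the asparagine synthetase, 1.35, and Atf4 itself 0.45. Of the 5 cytosolic members with the ATF4 element, Tars, Aars and Yars had 1.67, 1.29 and 1.26 at 60 min in CCNA-GFP, Gars 0.63 and Iars 0.46. Gene lengths in the same order were 17.4, 24.5, 29.8, 41.5 and 52.2 kb.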

How the data were processed

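The data are RNA-seq measurements of pre-mRNA from 55 libraries. From ribo-depleted, stranded, paired-end reads, the authors obtained the deposited TPM values with STAR and RSEM on mm10 and Gencode vM12, to which a pre-mRNA isoform was added for each gene, and kept genes above a minimum level. Versions of STAR and RSEM, read counts and the strand setting of the counting are not given in the sources used here, and values carry a per-library factor whose origin is not stated, so depth is unknown and only the spread between libraries gives precision.

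From these values, log2(TPM + 1) was fitted across all genes of a table with limma 3.58.1 (R 4.3.3, trended moderation), with Benjamini-Hochberg adjustment over all genes. Stages were compared within CCNA-GFP and within each CTCF-AID arm, with the replicate number as a block, at an adjusted p below 0.05. The +IAA against -IAA comparison had no block, because the paper names none for its own comparison, and required an adjusted p below 0.1 and a log2 difference over 0.2. That fit ignores the pairing of same-numbered libraries described next, so calls with the block are given beside it. Replicate numbers were taken to mark one experiment, since most stages have replicate 1 and one other number (50 min CCNA-GFP has only replicate 3). Same-numbered libraries deviated together in 20 of 20 pairs of groups in CCNA-GFP (lowest r 0.13, median 0.43) and in 88 of 88 in CTCF-AID (lowest r 0.11, median 0.49). The misspelt headers of the 6 asynchronous CTCF-AID columns (rep1sy for Asy) were read by their arm, stage ending and replicate number. The libraries are replicate experiments of 1 clone or line, so p-values measure the spread between them.

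The members and lists were chosen with earlier results of these data known. The genes named were, in each class, the 3 genes with the largest and the 2 with the smallest 60 min difference in CCNA-GFP. The highest and the lowest in asynchronous CCNA-GFP cells, those called between +IAA and -IAA and those called lower than mitosis were also named. Of each pathway list the gene with the largest 60 min difference is named and, except for the amino acid response genes, that with the smallest. Others are named for their role. Members named by this rule have library values, a range or a mean with SD, some in 1 arm only, and pathway genes have fitted differences. Aars2 and Rars, the length limit of 40 kb, values relative to the median of all genes with libraries scaled to the same total, and the block combined with that scaling were chosen after seeing the data. Alternatives were a pseudocount of 0.1, scaling to the same total, a mean of at least 1 TPM, no trend, the other block setting, leaving out each library and leaving out Gars and Kars. Gene lengths and positions are from GENCODE vM21 (GRCm38). Scripts used Python 3.11.15, pandas 2.3.3, numpy 2.4.6 and matplotlib 3.10.9, and the fits were tested on simulated data.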

Additional observations from a re-analysis of the deposited data

How the results depend on the processing

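Over 61 results and 608 alternatives, 513 were labelled the same. For single genes this meant the same direction and call, and for class medians a value within the SD of the replicates. A count was labelled the same when it stayed within a fixed ratio of the reported one, so such counts could still differ. The scale mattered most, and the cause was not tested. With every library brought to the same total, the CCNA-GFP stages of 40, 60 and 120 min had 4, 9 and 7 cytosolic and 0, 2 and 2 mitochondrial members higher than in mitosis, and asynchronous cells 5 and 6. They numbered 7 and 2 at 40 min and 7 and 4 at 60 min in -IAA, and in +IAA 1 mitochondrial member at 40 min and 8 and 3 at 60 min. Members lower at 120 than at 60 min were 8 in each CTCF-AID arm, the cytosolic excess at 60 min was 0.16 in CCNA-GFP and 0.18 in -IAA, and Eprs (-0.63), Farsb (-0.59) and Yars2 (-0.032) turned negative in CCNA-GFP. Between +IAA and -IAA, 2 members were called in asynchronous cells and 1 each at 50, 60 and 90 min. The share of all genes called between the arms on this scale is not given, so these counts have no background.

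Without the replicate block, 4 cytosolic and 1 mitochondrial member were higher at 40 min and 8 and 8 in asynchronous CCNA-GFP cells, and 7 and 3 at 40 min in -IAA and again 7 and 3 in +IAA. Members lower at 120 than at 60 min were then 0 in CCNA-GFP, 9 in -IAA and 8 in +IAA. The share of all genes without the block is given above only for asynchronous CCNA-GFP cells. With the replicate block, 1 member was called between +IAA and -IAA, at 90 min (Aars2), and no other call of this comparison changed. With block and the same total together, chosen after seeing the data, the stages of 40, 50, 60, 90 and 120 min had 1, 2, 2, 1 and 1 members called and asynchronous cells 2, and all were Rars or Aars2. The share of all genes called in that fit is not given, so these counts have no background either. A filter on the mean (1 TPM or more) gave a cytosolic excess of 0.30 in -IAA.

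Leaving out each library in turn gave 5 to 10 cytosolic and 2 to 3 mitochondrial members higher at 40 min in CCNA-GFP (5 and 2 without 40 min replicate 1, 2 also without mitotic replicate 1 or 3), and 7 to 15 mitochondrial members in asynchronous cells. Mitochondrial members higher at 40 min were 3 to 6 in -IAA and 4 to 7 in +IAA, both lowest without 40 min replicate 1. Members lower at 120 than at 60 min were 0 to 10 in CCNA-GFP, 9 to 15 in -IAA and 8 to 19 in +IAA. No share of all genes is given for the fits with a library left out. Uncalled values changed sign for Tars2 (-0.11 to 0.040) and Fars2 (-0.073 to 0.050) at 60 min in CCNA-GFP. Between +IAA and -IAA they did so for Aars2 in mitosis (-0.13 to 0.046), at 20 min (-0.30 to 0.051) and at 40 min (-0.32 to 0.038), and for Rars at 20 min (-0.31 to 0.085). With 2 libraries at most stages and unknown depth, differences near the spread of 2 libraries could not be resolved, and low genes such as Fars2, Lars2 and Iars2 are understated most by the pseudocount.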
